A study of Homo sapiens with 18 samples.

Results

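The genes described here are 36 heat shock proteins, their co-chaperones and 2 heat shock transcription factors, chosen by gene symbol from the 38055 genes of a whole transcriptome RNAseq table. All 36 were in the table and all 36 passed the filter on low values, with day 3 means from 70.8 to 242017 normalized reads. The cells were wild-type HCT116, a human colorectal carcinoma line grown in McCoy's 5A medium with fetal bovine serum, sampled as whole cell RNA on day 3 at 50% confluency and on day 5 at 250% confluency, with 3 libraries per day labelled as biological replicates. Nothing in the sources used here says whether these came from separate cultures, so p-values measure the spread between the libraries. No agent was added and no gene was altered, and the comparison asked how expression differed between underconfluent and overcrowded cells. Time in culture and density rose together and cannot be told apart. In bulk RNA, a smaller share of cells that express a gene and less RNA per cell cannot be told apart either.

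Heat shock proteins bind unfolded or partly folded proteins and either hold them or pass them through cycles of ATP binding and release that let them fold. HSP70 proteins work with J proteins, which bring the client and start ATP hydrolysis, and with exchange factors of the HSP110 and BAG groups, and HSP90 acts later on kinases, receptors and other clients. The cytosolic chaperonin, a double ring built from different subunits, encloses actin and tubulin while they fold, and HSPD1 with its lid HSPE1 does the same job in the mitochondrial matrix. Heat shock factor 1 raises the inducible genes after heat or other protein damage by binding heat shock elements, which are inverted repeats of the letters GAA, whereas constitutive members such as HSPA8 are made in unstressed cells.

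The inducible members are often known by such promoter elements, so the promoters of the members were searched first. Sequences came from RefSeq on GRCh38.p14, from 250 bases before to 50 bases after each listed start, and 34 of the 36 members matched an entry, the exceptions being HSF1 and HSPA14. The letters searched were GAANNTTC and TTCNNGAA for 2 repeat units. For 3 units they were GAANNTTC followed by NNGAA, and TTCNNGAA followed by NNTTC. Both strands were covered, and every 3-unit match contains 2-unit matches. A 2-unit match was present for 18 of the 34 members and in 13.5% of all 35116 promoters, or for 13.6% of 11170 genes. A 3-unit match was present for 6 of the 34, namely HSP90AA1, HSPA8, HSP90AB1, DNAJA1, DNAJB6 and HSPD1, and in 0.490% of all promoters, or for 0.510% of the 11170 genes. The stretch recorded for DNAJA1 shows a 2-unit match only, so its 3-unit match is uncertain. Of the 6 with a 3-unit match, HSP90AB1 was higher on day 5 and the other 5 were lower. Of the 18 with a 2-unit match, 12 were lower, 4 were higher and 2 did not pass. With or without a match, 25 of the 36 members were lower and 7 higher. Among all genes tested, 28.7% were lower and 31.1% higher. The counts for matched members lie near those of all members and show nothing particular to genes with a match. HSPE1 was counted without a match at its listed start. However, a 3-unit match of its neighbour HSPD1, within chr2:197500062-197500086, lies less than 250 bases before 197500140. That is where the annotated HSPE1 gene starts on the plus strand. Counting HSPE1 without a match therefore depends on the start used. The windows below come from genes that were higher on day 5 (HSP90AB1, HSPA1A, HSPA1B), genes that were lower (HSP90AA1, HSPA8, HSPD1) and DNAJB1, which did not pass the test. Those of HSP90AA1, HSP90AB1, HSPA8 and HSPD1 mark 3-unit matches. Those of HSPA1A, HSPA1B and DNAJB1 mark 2-unit matches, since these genes had no 3-unit match. The capitals mark the matched letters, written 5′ to 3′ on the strand of the gene.
HSP90AA1, chr14:102087114-102087138, minus strand: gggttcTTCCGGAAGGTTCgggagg
HSP90AB1, chr6:44247825-44247849, plus strand: agattgTTCTGGAAGCTTCtggatt
HSPA8, chr11:123062173-123062197, minus strand: ggccccTTCTGGAAGGTTCtaagat
HSPD1, chr2:197500062-197500086, minus strand: tttctgGAAAGTTCTGGAAccgagc
HSPA1A, chr6:31815428-31815453, plus strand: aaaaccctgGAATATTCccgacctgg
HSPA1B, chr6:31827624-31827649, plus strand: aaacccctgGAATATTCccgacctgg
DNAJB1, chr19:14518428-14518453, minus strand: cgggctctgGAAGCTTCcgccggacg
A match describes the letters in this stretch and does not show that a factor bound there.

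The libraries held 27470978 to 56689369 reads on genes, and day 3 contained both the deepest and the shallowest one. Day 3 replicate 3, the shallowest, stood apart in its scale. It had the highest value of the 3 day 3 libraries for 30 of the 36 members, against 49.7% of all tested genes, and results that change without it are given with and without it. The defining epithelial markers EPCAM, KRT8 and KRT18 were strongly expressed in every library, and EPCAM lay between 6932 and 7403. The intestinal markers CDX1, VIL1 and CDH17 were near 0 in all libraries, at up to 5.18 normalized reads, and CDX2 lay between 208 and 323. The 4 leukocyte markers together summed to at most 9.92. The 5 fibroblast markers summed to 526 to 605 on day 3 and 1124 to 1200 on day 5, nearly all of it COL1A1, the 1 marker of the 5 that passed the test, with DCN at 0 in 5 libraries, and the part of such cells in the results was not tested. Of the epithelial markers, KRT8, KRT18, KRT19 and CDH1 were higher on day 5, and the 5 markers together summed to 36900 to 54939 on day 3 and 100049 to 101107 on day 5. The 2 endothelial markers in the table summed to 8.51 to 21.0 on day 3 and 20.7 to 39.7 on day 5, with VWF higher. The noncoding RNA RN7SK took 1.68% to 2.27% of reads on day 3 and 0.792% to 0.837% on day 5, and mitochondrial coding genes 6.59% to 7.09% and 5.36% to 6.01%. Their part in the results was not tested either.

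Most of the 36 members had less RNA at high density. On day 5, 25 members were lower and 7 were higher than on day 3, at an adjusted p-value under 0.05 by limma with Benjamini-Hochberg adjustment over all 20129 genes tested. Among all genes tested, 28.7% were lower and 31.1% were higher, which makes 59.9% in either direction. The median log2 fold change of the members was -0.55, against 0.01 for all genes tested. Between days, the libraries were fully separated for 25 members in the lower and 8 in the higher direction, where 31.7% and 33.4% of all genes did the same. A fall of at least 2-fold with an adjusted p under 0.05 was seen for 7 members, HSPE1, HSPA8, DNAJA1, CCT2, HSP90AA1, HSPA14 and CCT8, and 7.84% of all genes passed that rule. No member rose by 2-fold at that threshold, against 10.5% of all genes, although 7 passed limma without the fold minimum. Counts of 7 higher and 25 lower members were also obtained by edgeR, which called 31.0% of all genes higher and 30.0% lower (61.0% in all), and by DESeq2, which called 29.4% higher and 27.9% lower (57.3% in all). Together the 36 genes took 2.27%, 2.33% and 2.44% of all reads on day 3 and 1.58%, 1.49% and 1.54% on day 5.

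**Figure D1:**
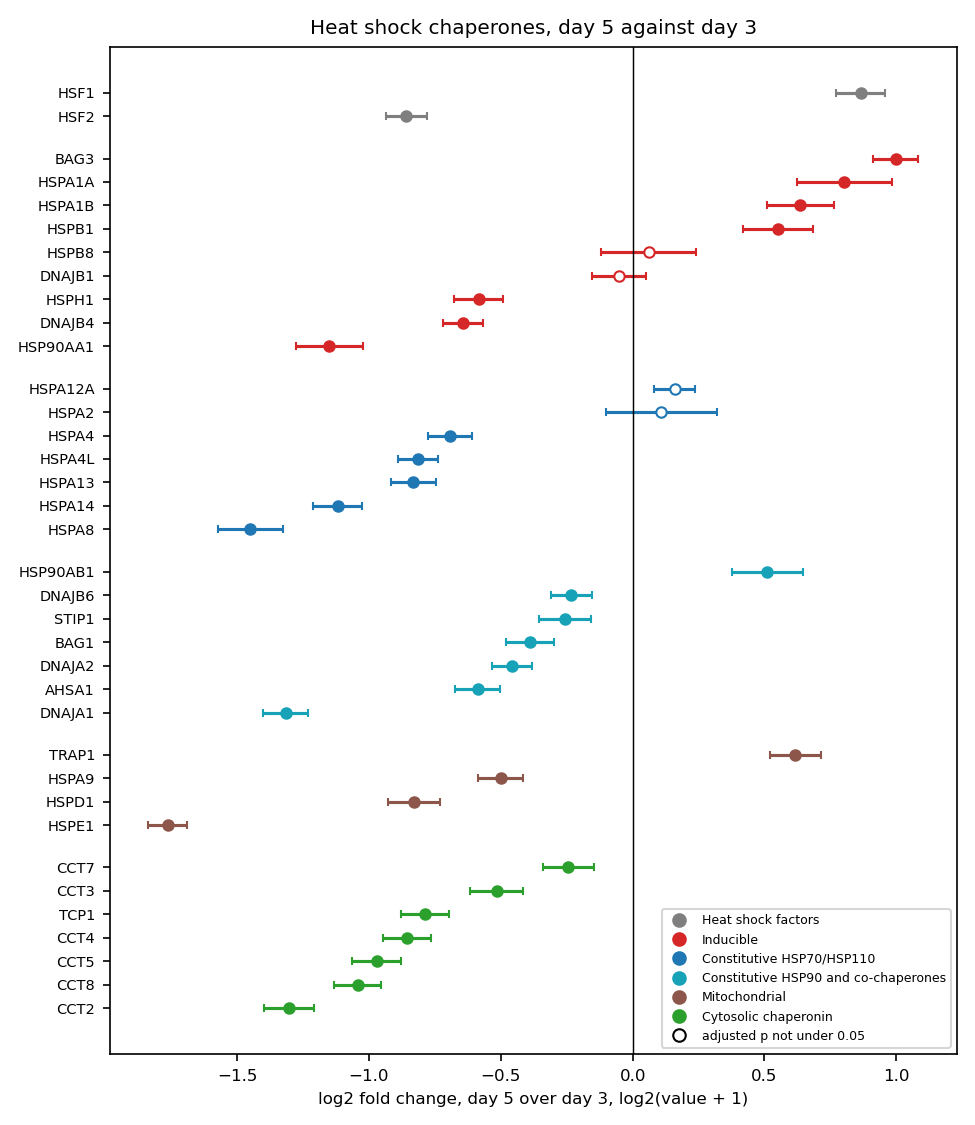
Log2 fold change of each of the 36 members, day 5 over day 3 (horizontal axis, on the log2(value + 1) scale), with bars of 1 standard error from limma; filled points passed an adjusted p of 0.05 and open points did not. The 7 chaperonin subunits all lie left of 0, between -1.30 and -0.24, and the 9 inducible members spread from -1.15 to 1.00.

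HSF1 and HSF2, the transcription factors of the heat shock response, moved in opposite directions. HSF1, the factor needed for the response to heat, had 1428, 1591 and 1864 normalized reads in the day 3 libraries and 3020, 2839 and 2981 on day 5. HSF2, which responds to other signals such as differentiation and proteasome inhibition and can pair with HSF1, had 1742, 1531 and 1666 on day 3 and 887, 921 and 910 on day 5. Every day 5 library therefore lay above every day 3 library for HSF1 and below it for HSF2. The log2 fold changes were 0.86 for HSF1 (limma, standard error 0.09, adjusted p = 1.07e-06) and -0.86 for HSF2 (standard error 0.08, adjusted p = 2.34e-07). After each library was corrected for the GC content and length of transcripts, as described below, the values were 0.32 for HSF1 and -0.51 for HSF2, and both still passed.

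The 9 inducible members did not move as a group. Of these, 4 were higher on day 5, 3 were lower and 2 did not pass, and their median log2 fold change was 0.06. Shares of 31.1% higher and 28.7% lower among all genes tested lie near these counts, so they show nothing particular to the inducible members. With the GC and length correction, 2 were higher and 3 lower. BAG3, an exchange factor that couples HSP70 to selective autophagy, had the largest rise of any member. It had 989, 1144 and 1191 normalized reads on day 3 and 2315, 2085 and 2228 on day 5, so the day 5 mean was 1.99 times that of day 3 (limma, log2 fold change 1.00, standard error 0.09, adjusted p = 1.25e-07). HSPB1, a small heat shock protein that holds unfolded clients, had 3961, 4793 and 6538 on day 3 and 7748, 7306 and 6884 on day 5, with day 3 replicate 3 close to the lowest day 5 library (limma, log2 fold change 0.55, standard error 0.13, adjusted p = 0.00233).

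HSPA1A and HSPA1B encode the inducible cytosolic HSP70 and lie beside each other on chromosome 6 of GRCh38, HSPA1A from 31815543 to 31817946 and HSPA1B from 31827738 to 31830254, both on the plus strand. Of the stretches of 150 bases in the HSPA1A transcript, 69.6% are identical in HSPA1B, so many reads cannot be placed on either copy by sequence and the split between the copies is uncertain. HSPA1A had 56.2, 83.5 and 78.0 normalized reads on day 3 and 138, 114 and 126 on day 5, and HSPA1B had 1155, 1751 and 1693 on day 3 and 2499, 2237 and 2301 on day 5. Both were higher in every day 5 library, with log2 fold changes of 0.80 (adjusted p = 0.0013 from limma) and 0.64 (adjusted p = 0.000461). Neither passed after correction for GC content and length, with log2 fold changes of 0.32 (adjusted p = 0.135) and 0.17 (adjusted p = 0.172).

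The other inducible members were lower or did not pass. HSP90AA1, the inducible cytosolic HSP90, lies on chromosome 14 from 102080742 to 102139699 on the minus strand and was the most abundant member on day 3. It had 228673, 228841 and 268537 normalized reads on day 3 and 107659, 105142 and 113553 on day 5, a fall of 2.22-fold with no overlap (limma, log2 fold change -1.15, standard error 0.13, adjusted p = 1.59e-06). HSPH1, an HSP110 exchange factor that is raised by heat, went from 8887, 10086 and 10435 to 7313, 5871 and 6462 (log2 fold change -0.58, adjusted p = 6.11e-05 from limma). DNAJB4, an inducible J protein, went from 1750, 1792 and 1634 to 1106, 1060 and 1146 (log2 fold change -0.64, adjusted p = 3.41e-06 from limma). The exons of DNAJB4 overlap GIPC2 on the same strand. Those of HSPA1B and TRAP1 each overlap a gene without a symbol, and those of HSPA9 and TCP1 overlap small nucleolar RNA genes.

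DNAJB1, the main stress-induced J protein of HSP70, had 4659, 5514 and 6491 normalized reads on day 3 and 5666, 5167 and 5129 on day 5. The days overlapped, and the difference of -0.05 on the log2 scale (limma, standard error 0.10, adjusted p = 0.690) turned to 0.07 (adjusted p = 0.425) without day 3 replicate 3. HSPB8, a small heat shock protein that works with BAG3, was weakly expressed, at 65.8 to 85.1 on day 3 and 71.6 to 84.9 on day 5, and its value of 0.06 (standard error 0.18, adjusted p = 0.788 from limma) changed sign without day 3 replicate 1 (-0.010) or day 5 replicate 3 (-0.020). HSPA6, an inducible HSP70 with little basal expression that is not among the 36, had at most 3.25 normalized reads in any library and was not tested.

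Of the 14 members in the constitutive lists, 11 were lower, 1 was higher and 2 did not pass, where 28.7% of all genes tested were lower and 31.1% higher. HSPA8, the abundant constitutive HSP70 known as HSC70, lies on chromosome 11 from 123057489 to 123063230 on the minus strand, and 2 small nucleolar RNA genes overlap its annotated exons. It had 110087, 115753 and 142357 normalized reads on day 3 and 50151, 41947 and 42303 on day 5. The day 5 values were 2.74-fold lower on average, with no overlap (limma, log2 fold change -1.45, standard error 0.12, adjusted p = 1.15e-07). HSPA8 was at percentile 1.65 of the log2 fold changes of all genes tested. HSPA14, an HSP70 bound to the ribosome, had 2767, 2889 and 3562 on day 3 and 1480, 1358 and 1384 on day 5 (limma, log2 fold change -1.12, standard error 0.09, adjusted p = 9.06e-08), and its exons overlap MSANTD7 on the same strand.

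HSPA4 and HSPA4L, HSP110 proteins placed in the constitutive list, fell by 0.69 and 0.81 on the log2 scale (adjusted p = 4.06e-06 and 2.41e-07 from limma). HSPA4 had 14690 to 17472 normalized reads on day 3 and 9459 to 10028 on day 5, and HSPA4L had 2774 to 3048 and 1566 to 1723. HSPA13, an HSP70 relative of microsomes, went from 2732 to 2835 on day 3 down to 1422 to 1776 on day 5 (log2 fold change -0.83, adjusted p = 8.12e-07 from limma). HSPA2, known for its role in spermatogenesis, was near 70 normalized reads on both days, at 70.8 ± 19.3 (SD, n = 3) and 74.4 ± 4.13 (limma, adjusted p = 0.675). Its log2 fold change of 0.11 turned to -0.13 without day 3 replicate 1. HSPA12A, a distant relative of HSP70, had 989, 1054 and 1079 on day 3 and 1158, 1132 and 1195 on day 5, without overlap. The difference, 0.16 on the log2 scale, did not pass (limma, adjusted p = 0.0881), but passed without day 3 replicate 3 (0.19, adjusted p = 0.0357) and when each library was divided by its own total (0.23, adjusted p = 0.0145).

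HSP90AB1, the constitutive cytosolic HSP90, was the exception among the abundant members. Its gene spans 44246166 to 44253888 on chromosome 6 (plus strand), and it had 74833, 92274 and 108549 normalized reads on day 3 and 128763, 126718 and 132821 on day 5. All day 5 libraries lay above all day 3 libraries, and the day 5 mean was 1.41 times higher (limma, log2 fold change 0.51, standard error 0.14, adjusted p = 0.00449). The day 3 libraries were spread by 16862 (SD, n = 3) around 91886. Per kilobase of transcript, HSP90AA1 had 74974 normalized reads and HSP90AB1 35963 on day 3, and on day 5 HSP90AA1 had 33700 and HSP90AB1 50659, so their order was the opposite on the 2 days.

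The J proteins and the co-chaperones of HSP90 in the constitutive group were all lower. DNAJA1, the abundant class A J protein, fell most, from 14215, 15052 and 16229 to 6673, 5599 and 6016 normalized reads (limma, log2 fold change -1.32, standard error 0.09, adjusted p = 8.65e-09). Its relative DNAJA2 fell less, from 4105, 4375 and 4793 to 3278, 3158 and 3210 (log2 fold change -0.46, adjusted p = 9.67e-05 from limma). AHSA1, which stimulates the ATPase of HSP90, went from 5392, 6021 and 6556 to 4129, 3659 and 4148 (log2 fold change -0.59, adjusted p = 2.87e-05 from limma). BAG1, another HSP70 exchange factor, went from 1155, 1249 and 1440 to 1013, 937 and 973 (log2 fold change -0.39, adjusted p = 0.00166 from limma), the opposite direction to BAG3.

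STIP1, known as HOP, which bridges HSP70 and HSP90, had 9512, 11011 and 12642 normalized reads on day 3 and 9460, 8640 and 9496 on day 5 (log2 fold change -0.26, adjusted p = 0.0333 from limma). The lowest day 3 library was only just above the highest day 5 library. It did not pass without any single library other than day 3 replicate 1, with log2 fold changes from -0.28 to -0.16 (adjusted p from 0.0596 to 0.149); the smallest, -0.16, was without day 3 replicate 3. DNAJB6, a J protein that hinders aggregation of polyglutamine proteins, had 2925, 3277 and 3520 on day 3 and 2752, 2718 and 2782 on day 5 (log2 fold change -0.23, adjusted p = 0.0199 from limma). Its call was lost without day 3 replicate 2 or any 1 of the day 5 libraries (-0.24 to -0.22, adjusted p from 0.0517 to 0.0737).

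Relative levels within a library do not depend on the scale between libraries, and 5 such ratios were compared. They can still depend on the GC content and length of the transcripts, for which the ratios were not corrected. With the correction described below, single log2 fold changes were -0.95 for HSP90AA1 and 0.56 for HSP90AB1. They were 0.32 for HSPA1A, 0.17 for HSPA1B and -1.26 for HSPA8. For DNAJB1 and DNAJA1 they were -0.15 and -0.96, for HSPD1 and HSPE1 -0.48 and -0.99, and for HSPH1 and HSPA4 -0.49 and -0.64. HSP90AA1 over HSP90AB1 was 3.06, 2.48 and 2.47 in the day 3 libraries and 0.836, 0.830 and 0.855 on day 5. The sum of HSPA1A and HSPA1B over HSPA8 was 0.0110, 0.0158 and 0.0124 on day 3 and 0.0526, 0.0560 and 0.0574 on day 5. DNAJB1 over DNAJA1 was 0.328, 0.366 and 0.400 on day 3 and 0.849, 0.923 and 0.852 on day 5. For each of these, and for HSPD1 over HSPE1, the 2 days did not overlap. The differences in log2 ratio, day 5 minus day 3, were -1.66, 2.10 and 1.27 in that order (each with p = 0.1 by a two-sided exact permutation test, which cannot go lower with 3 libraries a day; adjusted for the 5 ratios by Benjamini-Hochberg, p = 0.125). HSPH1 over HSPA4, the inducible over the constitutive HSP110, was 0.605, 0.655 and 0.597 on day 3 and 0.729, 0.621 and 0.653 on day 5, which overlapped (difference in log2 ratio 0.11, exact permutation p = 0.3). The inducible partner thus took a larger part of the HSP70 ratio and a smaller part of the HSP90 ratio on day 5.

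**Figure D2:**
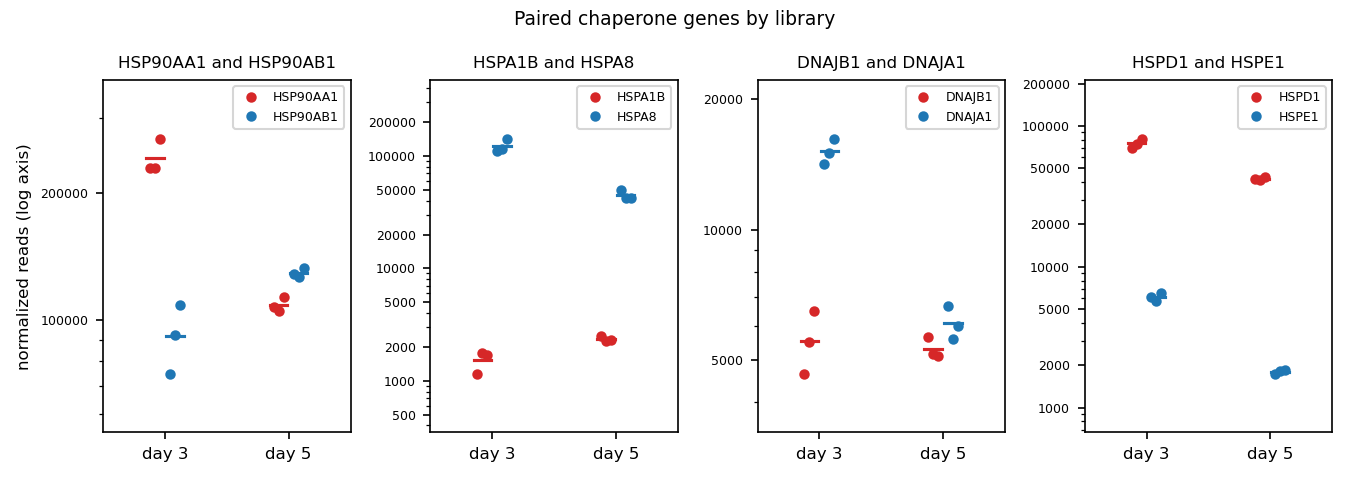
Normalized reads (vertical axes, log scale, a separate range in each panel) of 4 pairs of chaperone genes in the 3 libraries of day 3 and of day 5; points are libraries and lines are means. HSP90AA1 lies above HSP90AB1 in all 3 day 3 libraries and below it in all 3 day 5 libraries, and HSPA8 and HSPA1B come closer on day 5 with HSPA8 still far higher.

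The 4 mitochondrial members also differed among themselves. HSPE1, the lid of the mitochondrial chaperonin, had the largest uncorrected fall of the 36. With the GC and length correction HSPA8 fell more, with a log2 fold change of -1.26, against -0.99 for HSPE1. Its gene spans 197500140 to 197503449 on chromosome 2 (plus strand), and it had 6115, 5772 and 6554 normalized reads on day 3 and 1747, 1821 and 1857 on day 5, a fall of 3.40-fold (limma, log2 fold change -1.76, standard error 0.07, adjusted p = 1.71e-10). HSPE1 was at percentile 0.651 of all genes tested, and the read-through gene HSPE1-MOB4 shares 10.8% of its stretches of 150 bases. HSPD1, the ring subunit, lies on the minus strand of the same locus, from 197486584 to 197516737, and went from 70154, 74394 and 81143 to 42267, 41217 and 43281 (limma, log2 fold change -0.83, standard error 0.10, adjusted p = 3.55e-06).

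HSPD1 and HSPE1 therefore fell together but by unequal amounts. The number of HSPD1 reads per HSPE1 read was 11.5, 12.9 and 12.4 on day 3 and 24.2, 22.6 and 23.3 on day 5 (difference in log2 ratio 0.93, two-sided exact permutation p = 0.1, the smallest that the design allows). HSPE1 has a transcript of 0.557 kilobases, the shortest of the members, against 2.25 kilobases for HSPD1. Per kilobase, HSPD1 was at 33510 normalized reads on day 3 and 18822 on day 5, and HSPE1 was at 11036 and 3246. HSPA9, the mitochondrial HSP70 that also serves protein import, went from 21849, 23905 and 25426 to 16805, 16063 and 17359 (log2 fold change -0.50, adjusted p = 0.000126 from limma). TRAP1, the mitochondrial HSP90, went the other way, from 5422, 6123 and 7292 to 9647, 9240 and 9791 (limma, log2 fold change 0.62, standard error 0.10, adjusted p = 5.38e-05). Its log2 fold change was 0.27 after the GC and length correction. The constitutive HSP90 of the cytosol and that of mitochondria were thus both higher on day 5.

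All 7 measured subunits of the cytosolic chaperonin were lower on day 5, by unequal amounts, with a median log2 fold change of -0.86. Among all genes tested, 28.7% were lower. With the GC and length correction described below, all 7 were still lower, with a median of -0.57, where 28.2% of all genes were lower. CCT2 fell most, from 27557, 26974 and 33014 normalized reads on day 3 to 12091, 10949 and 12312 on day 5 (limma, log2 fold change -1.30, standard error 0.09, adjusted p = 2.36e-08). CCT8 (-1.04), CCT5 (-0.97), CCT4 (-0.86), TCP1 (-0.79) and CCT3 (-0.52) followed, each with standard errors from 0.09 to 0.10, an adjusted p of at most 0.000433 and no overlap between days. CCT7 had the smallest change. It had 16660, 18224 and 21549 on day 3 and 16386, 15157 and 15845 on day 5, so that the days were barely apart (limma, log2 fold change -0.24, standard error 0.10, adjusted p = 0.0397). The CCT7 call was lost when any library other than day 3 replicate 1 was left out, with values from -0.27 to -0.14 (adjusted p from 0.0677 to 0.150), the smallest without day 3 replicate 3, and when no filter was used (adjusted p = 0.0539). CCT6A, a further ring subunit outside the 36, was lower as well, at 29277 ± 2267 (SD, n = 3) on day 3 and 14127 ± 431 on day 5 (log2 fold change -1.05, adjusted p = 6.98e-08 from limma).

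Because the subunits share a ring, their levels were also set side by side per kilobase of transcript. On day 3 they ranged from 8189 normalized reads per kilobase for CCT5 to 16144 for CCT8, a 1.97-fold range. On day 5 they ranged from 4166 for CCT5 to 9996 for CCT3, a 2.40-fold range. CCT8, CCT2 and CCT3 were the highest 3 on day 3, at 16144 ± 1464, 15231 ± 1739 and 14367 ± 1990 (SD, n = 3), with spreads that overlap. On day 5 the order was CCT3, CCT7 and CCT8, at 9996 ± 437, 8552 ± 333 and 7821 ± 320, and CCT3 lay above the next 2 by more than their spread. These levels were not corrected for GC content, which was 50.6% for CCT3, 51.6% for CCT7 and 41.5% to 44.5% for the others. With the GC and length correction, the log2 fold changes were -0.92 for CCT2, -0.90 for CCT5, -0.61 for CCT8 and -0.57 for CCT4. They were -0.48 for CCT3, -0.48 for TCP1 and -0.23 for CCT7, so the order of the falls differed after the correction.

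**Figure D3:**
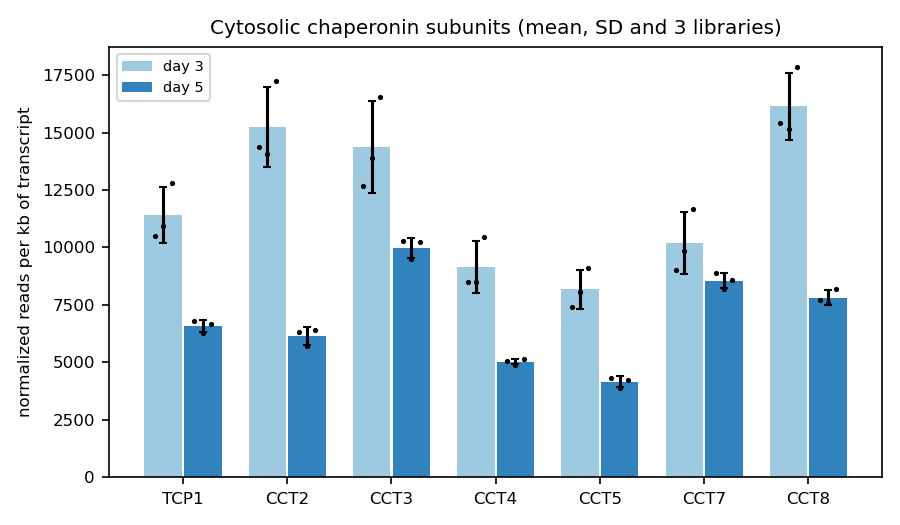
Normalized reads per kilobase of transcript (vertical axis) for 7 subunits of the cytosolic chaperonin on day 3 and day 5; bars are means, error bars SD, and dots the 3 libraries. Every subunit is lower on day 5, and the gap is narrow for CCT7 and wide for CCT2.

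A wider list of chaperone genes outside the 36 was examined in the same way. It held further J proteins, exchange factors, HSP90 co-chaperones, prefoldin subunits and mitochondrial proteases, and 60 of the 68 listed genes could be tested. Of these, 32 were lower on day 5 and 13 higher, against 28.7% and 31.1% of all genes tested, with a median log2 fold change of -0.28. With the GC and length correction, 35 were lower and 10 higher, where 28.2% and 26.4% of all genes were. Uncorrected, the further HSP90 co-chaperones went both ways, with 6 of 14 lower and 4 higher (median log2 fold change -0.02). So did the further J proteins, with 6 of 12 lower and 3 higher (median -0.15). The exchange factors and adaptors had 2 of 7 lower and 2 higher, and the mitochondrial chaperones and proteases 5 of 11 lower and 2 higher. In the list of CCT6A, CCT6B, prefoldin subunits and chaperonin and tubulin co-factors, 11 of 12 were lower and none higher by limma (the twelfth, CCT6B, was at 61.7 ± 3.23 and 55.7 ± 5.30 normalized reads; SD, n = 3). With the GC and length correction, 10 of these 12 were lower and 0 higher, with a median of -0.41, against -0.86 uncorrected. The mitochondrial list then had 8 lower and 1 higher, and the further HSP90 co-chaperones 6 lower and 3 higher. The further J proteins had 6 lower and 2 higher, and the exchange factors 3 lower and 2 higher. Prefoldin hands actin and tubulin chains to the chaperonin, and its subunits PFDN4 and VBP1 were among the 4 largest uncorrected falls (log2 fold changes -1.33 and -1.32, adjusted p = 1.11e-08 and 1.34e-09 from limma). CACYBP, a partner of the HSP90 co-chaperone SUGT1, and CHORDC1, an HSP90 co-chaperone, were the others, at -1.36 and -1.29 (adjusted p = 1.5e-09 and 2.91e-09 from limma).

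The 4 largest rises of the wider list included HSF5 and HSF4, further heat shock factors, which were weakly expressed. HSF5 had 7.90, 9.27 and 1.42 normalized reads on day 3 and 15.2, 20.4 and 16.6 on day 5. It reached the filter of 10 through its day 5 libraries only, so it had to differ; it is 1 of the 13 counted as higher above, and its test is not given. DNAJB2, a J protein that passes clients to the proteasome, went from 336, 401 and 435 normalized reads to 1052, 1104 and 1105 (log2 fold change 1.48, adjusted p = 1.26e-08 from limma). BAG6, a chaperone of misplaced membrane proteins, went from 3266, 4025 and 5045 to 11538, 10976 and 11269 (log2 fold change 1.48, adjusted p = 6.28e-08 from limma). HSF4 went from 120, 97.7 and 86.5 to 261, 301 and 233 (limma, log2 fold change 1.38, adjusted p = 1.65e-06). With the GC and length correction, the log2 fold changes were 0.84 for DNAJB2, 0.81 for BAG6 and 0.90 for HSF4, and among the falls -0.64 for PFDN4, -0.75 for VBP1, -1.07 for CACYBP and -0.96 for CHORDC1. The largest corrected fall of the wider list was then that of HSBP1, a small protein that binds heat shock factor 1, which was named after its values were seen (-1.34, against -1.12 uncorrected).

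The direction of the members went with the GC content of their transcripts. All 18 members with a GC content under 45% were lower on day 5, all 6 with 55% or more were higher, and of the 12 between these values 7 were lower and 1 was higher. Over all genes the same was seen to a smaller extent, since 47.2% of genes under 45% GC were lower and 56.3% of genes with 55% or more were higher. Across the 19288 genes with a value, the Spearman correlation of log2 fold change with GC content was 0.44, a description over genes that share the same 6 libraries. The members under 45% had a median log2 fold change of -0.84, against -0.32 for all genes of that GC content. After each library was corrected for GC content and transcript length, 25 members were lower and 5 higher, where 28.2% and 26.4% of all genes were, and the median log2 fold change of the members was -0.46. HSPE1 then had a log2 fold change of -0.99, HSPA8 of -1.26 and HSP90AA1 of -0.95, whereas HSP90AB1 had 0.56 and BAG3 0.63. Several called members shrank by a larger factor. TRAP1 went from 0.62 to 0.27, HSPB1 from 0.55 to 0.26, HSF1 from 0.86 to 0.32, DNAJB4 from -0.64 to -0.29 and DNAJA2 from -0.46 to -0.19 on the log2 scale, all still past the threshold. HSPE1 (-0.99), BAG3 (0.63), HSPD1 (-0.48), HSPA14 (-0.66), CCT8 (-0.61), TCP1 (-0.48) and HSF2 (-0.51) were also over 1.5 times smaller than before the correction. HSPA1A and HSPA1B no longer passed. Whether GC content played a part in the uncorrected values was not tested.

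**Figure D4:**
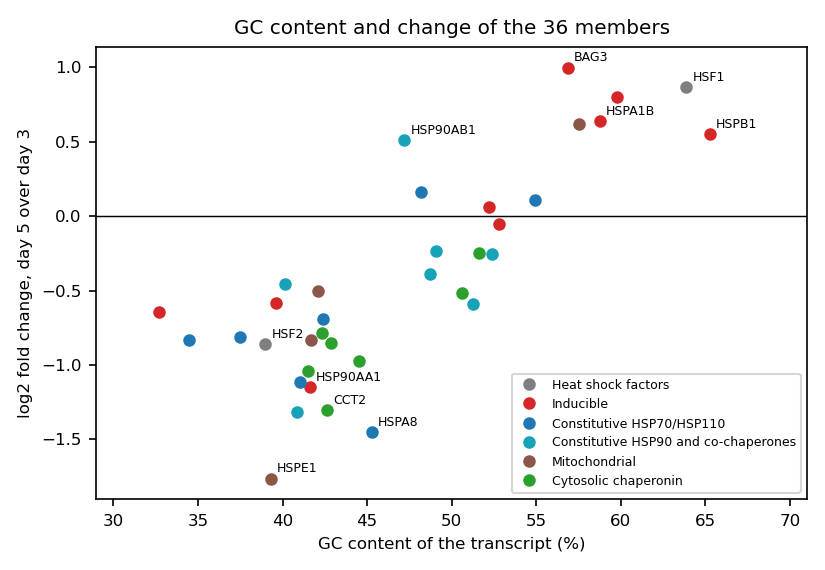
GC content of the transcript (horizontal axis, percent) against the log2 fold change, day 5 over day 3, for the 36 members, coloured by group. All points left of 45% lie below 0 and all points right of 55% lie above it, and HSP90AB1, at 47.2%, is the only member under 55% that was called higher.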

How the data were processed

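Whole transcriptome libraries of HCT116 cells on day 3 and day 5 were analysed, 3 per day; the small RNA tables were not used here. The authors trimmed and mapped paired-end reads strand-specifically to ENSEMBL genes of hg38 in CLC Genomics Workbench, with TMM named for normalization. The deposited signal values are reads per gene scaled per library: 100% were whole multiples of 1 read (within 0.01 reads, widened in proportion to the count above 1000 reads), so reads were recovered, from 27470978 to 56689369 per library. The authors' own fold changes and p-values in the table were not used.

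The 20129 genes that reached a value of 10 in 3 or more libraries were tested with limma 3.58.1 (R 4.3.3, with a mean trend) on log2(value + 1), with Benjamini-Hochberg adjustment and a threshold of 0.05; fold changes on that scale understate the change of low genes. edgeR 4.0.16 and DESeq2 1.42.0 on recovered reads, other scales, filters and pseudocounts, a 2-fold minimum, the replicate number as a block and leaving out each library were alternatives; the GC and length correction (lowess, span 0.3) was added after seeing the data. Ratios were compared by exact permutation. Lengths, GC content and loci came from GENCODE release 44 on GRCh38, 1 canonical transcript per gene, and promoters from RefSeq. In simulated data with 20129 genes, of which 200 were changed, 77 of 100 genes changed 1.5-fold and 100 of 100 changed 2-fold were called, with 10 false calls. The simulation gave all genes and both days the same dispersion and changed far fewer genes than were called here. Its recovery and false calls therefore do not carry over to these libraries. Members and lists were chosen with earlier results of these data known. All members were named; other chaperone genes were HSPA6, CCT6A and the 4 largest called changes per direction without overlap. Replicates of a day differed by more than counting noise (chi-square per degree of freedom from 4.17 to 22.9).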

Additional observations from a re-analysis of the deposited data

How the results depend on the processing

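The number of genes called was 12055 and stayed between 10537 and 12363 under every alternative other than a 2-fold minimum, which left 3696 (2117 higher, 1579 lower). The members called stayed at 22 to 25 lower and 5 to 8 higher, with the same exception. With the 2-fold minimum 7 members were lower and 0 higher (limma; 7 were higher without the minimum): 1 inducible, 2 constitutive HSP70 or HSP110, 1 of the constitutive HSP90 and co-chaperone list, 1 mitochondrial and 2 chaperonin members were lower, and 0 in the heat shock factors. Library totals moved the median of all genes from 0.01 to 0.08 and added 1 higher constitutive HSP70 member, HSPA12A, as did leaving out day 3 replicate 3; without single libraries that list had 0 to 1 higher calls. The GC and length correction left 2 inducible members higher, alone or with the replicate block. With the replicate block, 11865 genes were called, 7 members higher and 25 lower, and no call of a member changed. Same-numbered libraries did not deviate together (correlations of -0.10, 0.0071 and -0.0053 over 12624 genes), and unlike-numbered ones ranged from -0.12 to 0.14. With 3 libraries a day, such correlations cannot show whether same-numbered libraries were matched.

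Values of 4 members that did not pass changed sign: DNAJB1 on library totals (0.016) and without day 3 replicate 3 (0.068), HSPB8 on the upper quartile (-0.015) and without single libraries (-0.010 and -0.020), HSPA2 without day 3 replicate 1 (-0.13) and after the GC and length correction (-0.15), and HSPA12A after that correction (-0.11), the last 2 also with the replicate block. Over the single libraries left out, DNAJB1 ranged from -0.17 to 0.068, HSPB8 from -0.020 to 0.17 and HSPA2 from -0.13 to 0.27. The cause was not tested. Under the replicate block the 4 ratios that did not overlap had an exact paired p of 0.25, the smallest that 3 pairs allow. Leaving out single libraries kept the difference in log2 ratio between -1.71 and -1.56 for HSP90AA1 over HSP90AB1, 1.98 and 2.24 for HSPA1A plus HSPA1B over HSPA8, 1.19 and 1.34 for DNAJB1 over DNAJA1, 0.89 and 0.97 for HSPD1 over HSPE1, and 0.042 and 0.16 for HSPH1 over HSPA4. The ratios were not computed with the GC and length correction. HSPB8, HSPA2 and HSPA1A, with fewer than 150 normalized reads in any library, are the least precise values.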
